A study of Mus musculus with 13 samples.

Results

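The lipoxygenase and leukotriene pathway is described here through 8 named genes: the leukotriene synthesis genes Alox5, Alox5ap, Lta4h and Ltc4s, the receptor genes Cysltr1 and Ltb4r1, and the lipoxygenase genes Alox12b and Alox8. They were chosen by name and not by a cut on their values, though with earlier results of these data known. They were found by symbol among the 56980 Ensembl genes of the count table. All 8 were present in it, and 7 held enough reads for a test, Ltb4r1 being the exception.

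As background, lipoxygenases add oxygen to polyunsaturated fatty acids such as arachidonic acid, which phospholipases release from membrane phospholipids. Alox5 encodes the 5-lipoxygenase that makes leukotriene A4 with the help of the membrane protein FLAP, the product of Alox5ap. Lta4h turns leukotriene A4 into leukotriene B4, a chemoattractant for white blood cells that acts on Ltb4r1, and Ltc4s joins it to glutathione to give leukotriene C4, whose derivatives act on Cysltr1. In the brain the pathway is mostly associated with microglia and other myeloid cells, while Alox12b and Alox8 are best known from skin.

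The RNA came from whole hippocampus of male mice aged 9 months, 13 libraries in all. Every mouse carried the AppNL-G-F knock-in, an amyloid model, together with Lpcat3 f/f, the floxed gene of the enzyme that places arachidonic acid into phospholipids, and every mouse was given tamoxifen by gavage (20 mg/ml, 0.2 mg/g body weight). The 7 knockout libraries also carried vav1-CRE, a Cre driven in blood-forming cells and in the lineages that arise from them; the 6 control libraries, labelled WT, lacked it but had the knock-in, the floxed gene and the tamoxifen. The labels do not say that the samples were separate animals, so every p-value refers to the spread among these samples alone, and they do not say whether deletion needed the tamoxifen. Because whole tissue was sequenced, fewer cells of a type and less RNA per cell cannot be told apart.

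The libraries held 12159941 to 18322559 counted reads, so 3 reads, taken as the detection floor, correspond to 0.164 to 0.247 CPM, the unit of counts scaled to library size used throughout. The floor covers counting error only, while the 95% intervals of fold changes come from the edgeR fits and include the spread between libraries. Lpcat3 was lower in all 7 knockouts (17.2 to 24.3 CPM) than in any control (24.7 to 30.2 CPM), by -0.45 ± 0.088 (SE) on the log2 scale, with adjusted p-values of 0.096 (edgeR, quasi-likelihood test) and 0.0020 (DESeq2). The 8 hippocampal neuron genes summed to 4291 to 4831 CPM in controls and 4218 to 4972 CPM in knockouts, and the 10 homeostatic microglia genes to 799 to 899 and 754 to 902 CPM. The 8 choroid plexus genes ranged from 65.0 to 3062 CPM with a gap between 6 libraries (2 controls, 4 knockouts; up to 140 CPM) and 7 libraries (4 controls, 3 knockouts; from 873 CPM). Sample numbers fall into 3 runs in the titles (3283 to 3288, 3296 to 3300 and 4301 to 4307) that are unevenly shared by the groups, and what they stand for is not stated. In each run 1 group has only 1 library: control replicate 1, knockout replicate 6 and knockout replicate 7, in that order. Differences within a run therefore rest on 1 library in 1 of the groups.

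Stretches of 250 bases upstream of the RefSeq start of 4 of the genes are shown because they set the 3 measured lipoxygenases beside Lta4h, which had the highest level. They come from RefSeq on GRCm38.p6, an older build than the GRCm39 named for the counts, and are written 5′ to 3′ on the gene's strand. Capitals mark the GC box GGGCGG and the core of the PU.1 motif, GAGGAA, searched on both strands; none of the matches overlap. They are matches of letters only.
Alox5 (chr6:116461179-116461428, minus strand): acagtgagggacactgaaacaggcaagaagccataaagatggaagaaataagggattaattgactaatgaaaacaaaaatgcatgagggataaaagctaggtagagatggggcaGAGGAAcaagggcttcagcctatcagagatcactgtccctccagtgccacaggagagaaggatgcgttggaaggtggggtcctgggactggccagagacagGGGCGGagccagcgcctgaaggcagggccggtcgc
Lta4h (chr10:93453146-93453395, plus strand): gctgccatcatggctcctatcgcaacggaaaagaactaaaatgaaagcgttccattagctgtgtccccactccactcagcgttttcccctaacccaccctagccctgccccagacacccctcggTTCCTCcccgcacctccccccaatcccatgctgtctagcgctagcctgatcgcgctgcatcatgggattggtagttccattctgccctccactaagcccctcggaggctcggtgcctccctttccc
Alox12b (chr11:69156822-69157071, plus strand): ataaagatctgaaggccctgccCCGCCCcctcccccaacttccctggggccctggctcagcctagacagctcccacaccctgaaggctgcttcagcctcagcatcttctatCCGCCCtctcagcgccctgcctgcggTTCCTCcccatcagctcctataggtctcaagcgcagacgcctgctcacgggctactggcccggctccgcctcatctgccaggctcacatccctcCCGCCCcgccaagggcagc
Alox8 (chr11:69197844-69198093, minus strand): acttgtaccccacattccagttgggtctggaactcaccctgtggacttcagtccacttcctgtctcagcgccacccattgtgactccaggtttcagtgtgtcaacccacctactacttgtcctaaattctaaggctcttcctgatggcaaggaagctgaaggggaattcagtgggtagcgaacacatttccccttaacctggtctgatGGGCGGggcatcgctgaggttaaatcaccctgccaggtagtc
The Alox12b stretch held 3 GC boxes, those of Alox5 and Alox8 held 1 each and that of Lta4h held 0. The PU.1 core was present 1 time each in Alox5, Lta4h and Alox12b and 0 times in Alox8. Of 32851 mouse promoter windows of this length, 32.7% held a GC box and 23.3% the PU.1 core. Lta4h and Alox12b had 11 CG pairs each, Alox5 5 and Alox8 4, against a median of 6.0 over all windows. Of the 8 genes, 6 had a window in the table, with Ltc4s and Ltb4r1 as the other two.

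Lta4h stood far above the other 7 of the 8 genes. Levels between genes are compared as reads scaled to exon length in kilobases and to library size (RPKM), computed from the counts with the joined exons of GENCODE M21. Lta4h was at 8.20 ± 0.401 RPKM (SD over all 13 libraries), above 66.6% of the genes tested. Alox12b at 2.60 ± 0.572 RPKM, Alox8 at 2.18 ± 0.227 RPKM and Ltc4s at 2.08 ± 0.907 RPKM overlapped one another across libraries. Alox5ap followed at 0.826 ± 0.248 RPKM, below Ltc4s in all 13 libraries. Cysltr1 at 0.482 ± 0.125 RPKM and Alox5 at 0.412 ± 0.0483 RPKM overlapped, Cysltr1 being the higher in 9 of 13 libraries, and only 7.7% of the genes tested were lower than Alox5. Ltb4r1 came last, at 0.0243 ± 0.0367 RPKM.

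**Figure D1:**
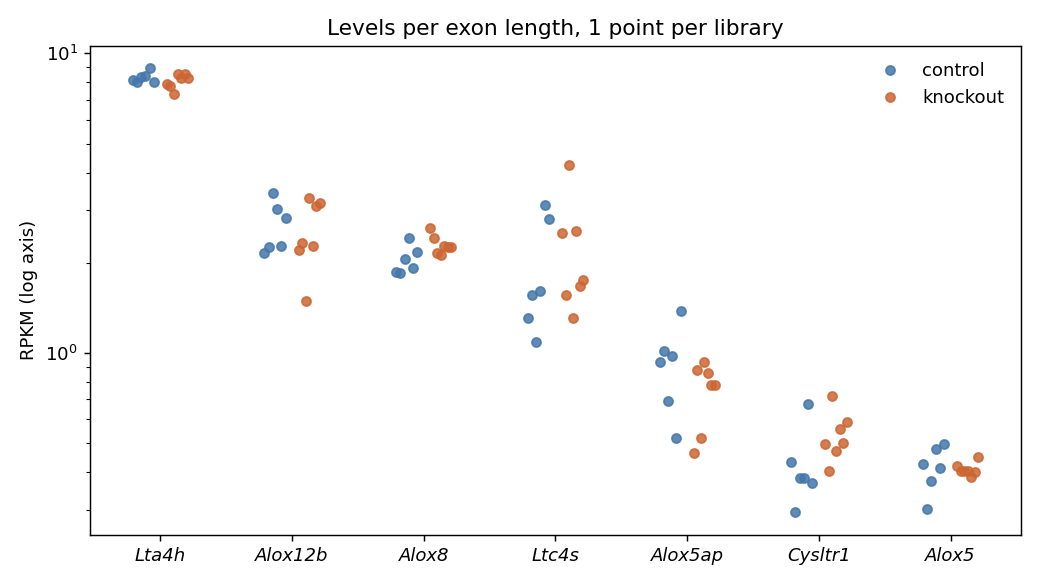
Level of each gene in RPKM on a log axis, 1 point per library, controls in blue and knockouts in orange; Ltb4r1, listed at 0 in most libraries, is left out. Lta4h lies near 8.20, apart from all others, and Alox5 and Cysltr1 lie lowest, near 0.412 and 0.482.

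None of the 7 genes tested differed between knockout and control past the threshold. Of the 7 genes tested, 0 passed at an adjusted p under 0.05 in edgeR, where 0.0228% of all 17549 genes did, and 0 had an unadjusted p under 0.05, where 12.5% of all genes did. DESeq2 gave an adjusted p to 3 of the 8 (Lta4h, Alox12b and Alox8) and called 0, where it called 1.44% of the genes it adjusted. Of the 8, 0 had an unadjusted p under 0.05 in DESeq2, for which the share of all genes is not given. In all 7 the groups overlapped; over all genes tested, 0.444% had groups that did not. The median log2 fold change was -0.02 over the 7 genes, 3 positive and 4 negative, and -0.00 over all genes tested. For 3 of the 7, every knockout lay on 1 side of the control median (Alox8 and Cysltr1 above, Alox5ap below), which held for 14.3% of all genes tested (6.74% above and 7.59% below).

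**Figure D2:**
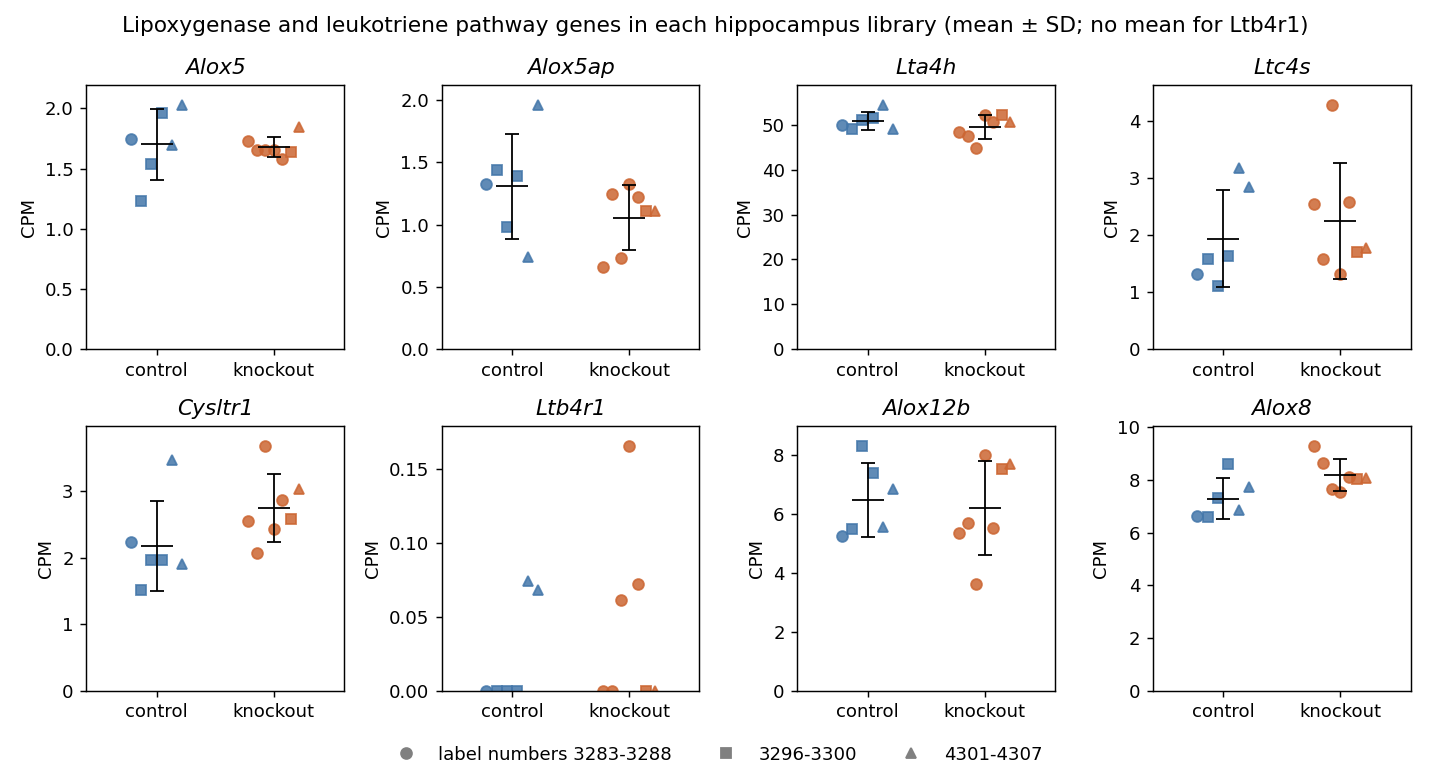
CPM of the 8 genes in each library, with the mean ± SD of each group as a black bar (6 controls, 7 knockouts; none drawn for Ltb4r1) and the runs of label numbers as symbols. Every panel shows overlapping groups; the knockouts of Alox8 lie between 7.55 and 9.29 CPM and the controls between 6.58 and 8.60 CPM.

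Among the synthesis genes, Alox5 had nearly the same level in both groups. It had 18 to 30 reads per library, at 1.23, 1.72 and 2.03 CPM (lowest, median and highest) in controls and 1.58, 1.66 and 1.85 CPM in knockouts. All knockouts lay inside the range of the controls, with a coefficient of variation of 5.09% against 17.2%. The variances of the counts were 0.0601 (knockouts) and 0.721 (controls) of what counting error gives. Both are below counting error, so the closeness is not read as a property of the knockouts. The estimate was -0.02 ± 0.16 (SE) in log2 fold change (edgeR, adjusted p = 0.984), and its 95% interval ran from 0.781-fold to 1.25-fold. The interval includes no change, and a change of a size within it is not excluded by these libraries.

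Alox5ap, which presents arachidonic acid to 5-lipoxygenase, had the lowest estimate of the 7. It had 8 to 29 reads per library, at 0.738, 1.36 and 1.96 CPM in controls and 0.658, 1.11 and 1.32 CPM in knockouts. All 7 knockouts were below the control median, and 2 were below every control. Controls averaged 1.31 ± 0.421 CPM (SD, n = 6) and knockouts 1.06 ± 0.258 CPM (SD, n = 7). The estimate was -0.30 ± 0.24 (SE) in log2 fold change (edgeR, adjusted p = 0.662), and the per-library levels gave an exact two-sided permutation p of 0.262. The 95% interval, 0.571-fold to 1.16-fold, includes no change. Differences in mean log2 CPM within the 3 runs were -0.36, -0.15 and -0.12. The estimate was -0.13 without control replicate 6, the library with the highest value, and -0.20 after the trend of counts on exon length was removed. An antisense gene, Gm19719, overlaps its exons and had 2 to 16 reads per library; the strand setting is not given in the sources used here, so reads of the pair cannot be told apart.

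Lta4h was the gene measured most precisely. It had 588 to 945 reads per library, at 49.0, 50.4 and 54.5 CPM in controls and 44.7, 50.6 and 52.2 CPM in knockouts. The groups shared most of their range, and the 3 lowest libraries were knockouts. The means were 50.8 ± 2.06 CPM (SD, n = 6) and 49.4 ± 2.73 CPM (SD, n = 7), an estimate of -0.04 ± 0.049 (SE) in log2 fold change (edgeR, adjusted p = 0.796). Its 95% interval of 0.906-fold to 1.05-fold is the narrowest of the 7 genes.

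Ltc4s varied more between libraries than between groups. It had 18 to 70 reads per library, at 1.11, 1.61 and 3.17 CPM in controls and 1.32, 1.77 and 4.29 CPM in knockouts. The highest library, knockout replicate 3, stood apart from the next knockout at 2.58 CPM. The estimate was 0.22 ± 0.30 (SE) in log2 fold change (edgeR, adjusted p = 0.813; 95% interval 0.756-fold to 1.79-fold), and it was -0.02 without that library. Within the runs the differences were 0.72, 0.24 and -0.72 in mean log2 CPM, so the sign turned in the run 4301 to 4307. Knockout replicate 7 was the only knockout in that run. The estimate was 0.73 without samples 4301 to 4307 (adjusted p = 0.344 in edgeR). An antisense gene, Gm26542, overlaps its exons and had 1 to 18 reads per library.

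Ltc4s was read most where choroid plexus genes were high. In the 6 libraries with few choroid plexus reads it lay between 1.11 and 1.77 CPM, and in the other 7 between 1.32 and 4.29 CPM. Knockout replicate 3 had the most choroid plexus reads of all, 3062 CPM summed over the 8 genes. Dpep1, a dipeptidase that cleaves leukotriene D4, behaved alike, with 0.164 to 0.414 CPM in the first 6 libraries and 0.488 to 2.82 CPM in the other 7. Alox12b went the opposite way, with 5.66 to 8.30 CPM in the first 6 and 3.62 to 6.84 CPM in the other 7. With the choroid plexus score as a covariate the log2 fold changes of knockout against control were 0.33 for Ltc4s, -0.15 for Alox12b and 0.39 for Cysltr1, with adjusted p of 0.505, 0.625 and 0.355 in edgeR.

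**Figure D3:**
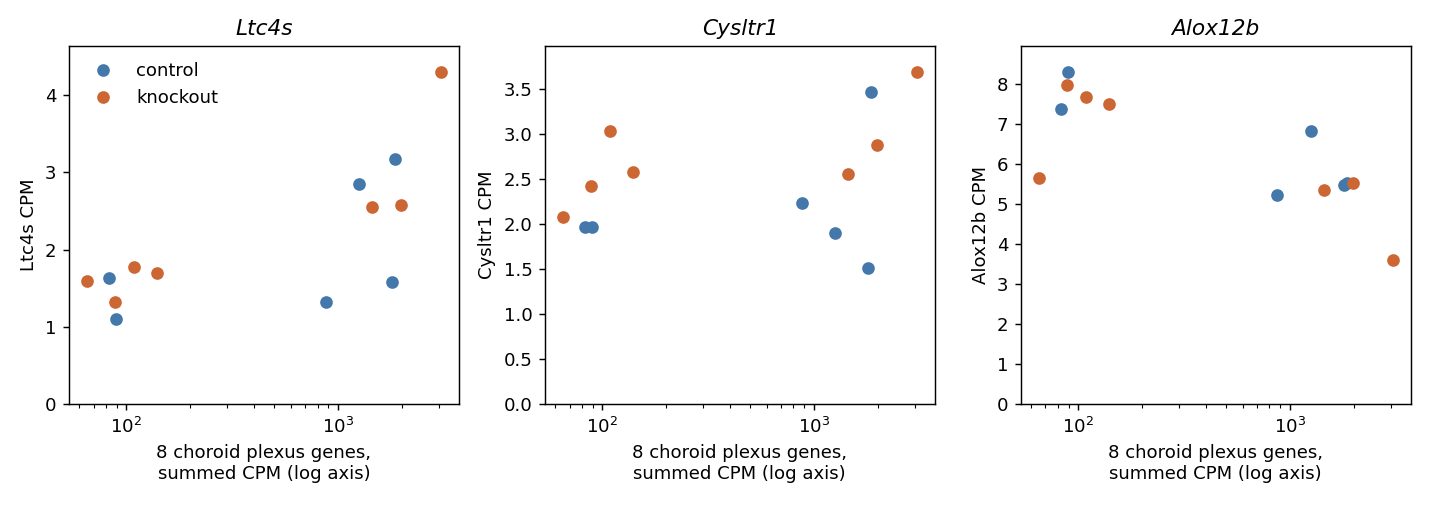
CPM of Ltc4s, Cysltr1 and Alox12b in each library against the summed CPM of 8 choroid plexus genes (log axis), controls in blue and knockouts in orange. Libraries form 2 sets along the x axis, up to 140 and from 873 CPM, with both groups in each; Ltc4s reaches 4.29 CPM and Alox12b falls to 3.62 CPM in the library farthest right.

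Of the receptors, Cysltr1 had the highest estimate among the 7 genes tested. It had 22 to 60 reads per library, at 1.51, 1.97 and 3.47 CPM in controls and 2.07, 2.58 and 3.68 CPM in knockouts. All 7 knockouts exceeded the control median and 4 of 6 controls lay below every knockout, while control replicate 5 stood apart at 3.47 CPM, above all knockouts but 1. The means were 2.17 ± 0.676 CPM (SD, n = 6) and 2.74 ± 0.515 CPM (SD, n = 7), an estimate of 0.34 ± 0.19 (SE) in log2 fold change (edgeR, adjusted p = 0.489), and the per-library levels gave an exact two-sided permutation p of 0.0769. The 95% interval ran from 0.959-fold to 1.67-fold. Over the 13 omissions of 1 library the estimate ranged from 0.26 without knockout replicate 3 (exact permutation p = 0.147 in mean log2 CPM) to 0.53 without control replicate 5, the high control (exact permutation p = 0.0063; adjusted p = 0.251 in edgeR), and it was also 0.26 without control replicate 2 (exact permutation p = 0.17). The differences within the 3 runs were 0.25, 0.49 and 0.23.

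Ltb4r1 was at or below the detection floor. It had 2 reads over the 6 controls and 5 over the 7 knockouts, with a read in 2 controls and 3 knockouts, and it reached 3 reads in 1 library, knockout replicate 4. No fold is given. That library also had the highest summed level of 12 neutrophil and monocyte genes, 3.66 CPM. The controls ranged from 0.672 to 1.74 CPM and the knockouts from 1.02 CPM up. The other knockouts with an Ltb4r1 read, replicates 3 and 5, were at 3.04 and 2.38 CPM. The controls with a read, replicates 5 and 6, were at 1.28 and 0.672 CPM, the last being the lowest of all libraries. The part of such cells in the Ltb4r1 reads was not tested. Ly6g, Elane, Camp, Mmp8 and Cxcr2 of that list never exceeded 3 reads.

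Of the lipoxygenases known from skin, Alox8 had the smallest edgeR and exact permutation p among the 8 genes without passing over all genes. In DESeq2 the unadjusted p of Cysltr1 was slightly smaller, 0.094 against 0.0957 for Alox8. Alox8, which encodes the 8-lipoxygenase of the mouse, had 93 to 137 reads per library. It was at 6.58, 7.09 and 8.60 CPM in controls and 7.55, 8.06 and 9.29 CPM in knockouts. All 7 knockouts exceeded the control median and 4 of 6 controls lay below every knockout. The means were 7.28 ± 0.778 CPM (SD, n = 6) and 8.19 ± 0.598 CPM (SD, n = 7). The difference in mean log2 CPM was 0.17 (exact two-sided permutation p = 0.035, 1 of 8 such tests; 12.2% of all genes tested had an exact p under 0.05), and the edgeR estimate of 0.17 ± 0.093 (SE) had an unadjusted p of 0.0857 and an adjusted one of 0.480, which ranked it at place 3127 of the 17549 genes. The 95% interval was 0.982-fold to 1.29-fold. The differences within the runs were 0.31, 0.10 and 0.14, all positive, but each rests on 1 library in 1 of the groups. The exact p rose to between 0.0628 and 0.0783 without knockout replicate 1 or 2 or control replicate 1, 2 or 5. It was 0.0857 without samples 4301 to 4307. Without control replicate 4 it fell to 0.00505, where the adjusted p in edgeR was 0.442.

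Alox12b, which encodes the 12R-lipoxygenase of the skin barrier, spread widely in both groups. It had 59 to 145 reads per library, at 5.23, 6.19 and 8.30 CPM in controls and 3.62, 5.66 and 7.99 CPM in knockouts. Values near 5 and near 8 CPM occurred in both groups, and the lowest was knockout replicate 3. The estimate was -0.06 ± 0.17 (SE) in log2 fold change (edgeR, adjusted p = 0.927; 95% interval 0.752-fold to 1.23-fold), and it was 0.16 with the runs as a term. The differences within the runs were 0.06, 0.11 and 0.31, all positive although the estimate over all libraries was negative. Each of them rests on 1 library in 1 of the groups. Among 7 keratinocyte genes 5 passed the count filter, while Ivl had no read and Krt14 never exceeded 3 reads. The 7 summed to 18.2 to 27.0 CPM in controls and 18.3 to 22.6 CPM in knockouts.

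The differences were also taken relative to microglial RNA. The homeostatic microglia score, the mean log2 CPM of its 10 genes, averaged 5.96 ± 0.0702 over controls (SD, n = 6) and 5.94 ± 0.100 over knockouts (SD, n = 7; exact two-sided permutation p = 0.762). Relative to it, the knockout minus control difference in log2 CPM was 0.01 for Alox5, -0.24 for Alox5ap, -0.02 for Lta4h, 0.22 for Ltc4s, 0.36 for Cysltr1, -0.07 for Alox12b and 0.18 for Alox8. The exact two-sided permutation p was 0.0332 for Alox8, 0.0769 for Cysltr1 and 0.288 or more for the other five, and 8.46% of all genes tested had a value under 0.05 on this scale. With 12 disease-associated microglia genes added to the score, genes that themselves had a lower summed level in knockouts (2117 to 2434 CPM against 2273 to 2862 CPM in controls), the differences were 0.31 for Alox8, 0.49 for Cysltr1 and 0.10 for Lta4h (exact two-sided permutation p = 0.0023, 0.0233 and 0.0414). That score was lower in knockouts, which raises the difference of every gene by the same amount, and 27.7% of all genes tested then had an exact p under 0.05, so these values are not read as differences of the 3 genes.

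No other gene of the pathway passed either. Of 30 further genes, 18 had enough reads for a test, 10 with positive and 8 with negative values. In edgeR 0 passed at an adjusted p under 0.05, where 0.0228% of all genes tested did. An unadjusted p under 0.05 was given to 1 in edgeR, where 12.5% of all genes had one. DESeq2 gave an adjusted p to 11 and called 0, where it called 1.44% of the genes it adjusted. Mgst3 and Alox15 had an unadjusted p under 0.05 in DESeq2. The share of all genes with such a p in DESeq2 is not given, so this is not read as a result. Alox15 had 12 reads over the controls and 2 over the knockouts, and no adjusted p. By group, 1 of 4 other lipoxygenases, 14 of 18 genes of leukotriene synthesis and breakdown and 3 of 8 oxylipin receptors were tested, with median log2 fold changes of 0.04, 0.01 and 0.03 against -0.00 over all genes. Aloxe3, which acts after the 12R-lipoxygenase in skin, was at 11.1 ± 1.98 CPM (SD, n = 6) and 11.5 ± 1.45 CPM (SD, n = 7). Mgst3, a microsomal glutathione transferase related to Ltc4s, had the smallest p of its group; its levels were 28.6 ± 2.46 and 24.4 ± 3.01 CPM, an estimate of -0.23 ± 0.082 (SE) in log2 fold change (edgeR, adjusted p = 0.261). Ggt7, of the gamma-glutamyltransferase family, had the highest level there, at 118 and 121 CPM in mean (log2 fold change 0.03 ± 0.050, SE). Among the receptors, Cysltr2 was at -0.20 (SE 0.35) and Gpr17, a receptor of oligodendrocyte precursors, at 0.03 (SE 0.13), both in log2 fold change.

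**Figure D4:**
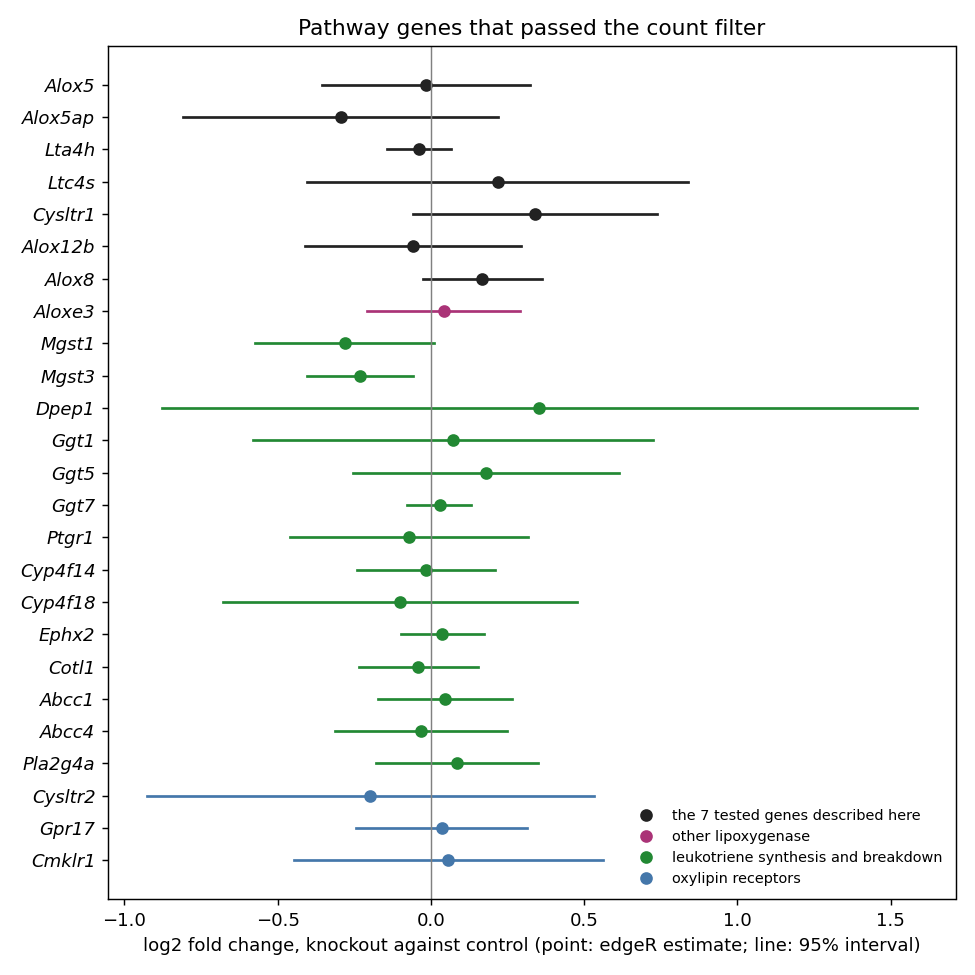
Log2 fold change of knockout against control (point) with its 95% interval (line) from edgeR, for the 7 tested genes described here in black and 18 other pathway genes in colour. Of the 7, the interval is narrowest for Lta4h and all 7 include 0; the interval of Mgst3 alone lies wholly below 0, with an adjusted p of 0.261 in edgeR.

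For the 3 genes with a mean of at least 50 reads, the genes whose library-to-library pattern was most alike were sought among 12186 others, by Pearson's r of log2 CPM over the 13 libraries with each group centred on its mean. For Lta4h they were Cpeb1os1 (r = 0.83), Use1 (0.81) and Rnase4 (0.79). For Alox12b they were Hist3h2a (0.88), Map7 (0.88) and Ppp1r16b (0.87). For Alox8 they were Nif3l1 (0.85), Ptprr (0.82) and Dnm2 (0.80). The Spearman coefficients of these pairs lay between 0.78 and 0.89. All genes of a library share its dissection and depth, and the libraries differed in read totals and in choroid plexus levels. The highest of many coefficients over 13 points is also high in any case, so these are a description.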

How the data were processed

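The deposited file holds whole-number read counts per Ensembl gene, not normalized, in 13 columns matched to samples by title. The authors' tools, per the submitters' processing notes, were featureCounts 2.0.3, STAR 2.7.10a and DESeq2 1.36.0 under R 4.2.0, on GRCm39; annotation, strand and multimapping settings are stated nowhere in the sources at hand.

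Groups were tested with edgeR 4.0.16 (R 4.3.3; quasi-likelihood, TMM factors, filterByExpr, Benjamini-Hochberg adjustment over 17549 genes, threshold 0.05), and single genes also by exact two-sided permutation of log2 CPM (prior count 2) over 1716 splits. CPM used TMM factors; summed marker CPM used library size alone. Symbols and exon lengths came from GENCODE M21 (GRCm38). The fitting code was run on simulated counts with known fold changes, as a check of the code and not of the power of these tests.

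The genes and lists were chosen with earlier results of these data known. Named were the 8 genes, Lpcat3, in each list of other genes any that passed or else those with the smallest p and the highest level, and the 3 most alike in pattern; Dpep1, Alox12, Alox12e, Alox15 and single marker genes were chosen after their values were seen. Alternatives were DESeq2 1.42.0, other scalings and filters, terms for run, homeostatic microglia or choroid plexus, exon-length trends removed (lowess, span 0.4), a prior count of 0.5, and leaving out samples 4301 to 4307 or each library.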

Additional observations from a re-analysis of the deposited data

Results flagged for a closer look

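In 16 sets of values (8 genes, Ltb4r1 left out and Lpcat3 included, in 2 groups), 2 held a library far from the others of its group by the ratio of its gap to the group's range, a test that flags about 5% of sets by chance. Ltc4s was at 4.29 CPM in knockout replicate 3, with the next knockout at 2.58 CPM. Cysltr1 was at 3.47 CPM in control replicate 5, with the next control at 2.23 CPM. These libraries had summed choroid plexus levels of 3062 and 1852 CPM, the highest of the knockouts and the highest of the controls. Control replicate 2, at 1793 CPM, had the lowest Cysltr1 of all libraries, 1.51 CPM, and Ltc4s at 1.58 CPM.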

How the results depend on the processing

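Under the 11 alternative fits and the 13 omissions of 1 library, 0 of the tested genes of the pathway passed over all genes, and 0 of the other pathway genes did. Lpcat3 passed in DESeq2 (log2 fold change -0.44), without a count filter (-0.44) and with the choroid plexus covariate (-0.44). It was smallest with the run term (-0.35, adjusted p = 0.489 in edgeR). It lay between -0.50 and -0.41 over the 13 omissions, passing in 2 (without knockout replicate 3 or control replicate 1). Alox12b turned to 0.16 with the run term and ranged from -0.134 to 0.044 over the omissions. Alox5 turned to 0.037 without samples 4301 to 4307 (0.044 in mean log2 CPM) and ranged from -0.087 to 0.050 over the omissions. Ltc4s ranged from -0.023 to 0.416. In mean log2 CPM, Alox5 ranged from -0.083 to 0.049 and Alox12b from -0.151 to 0.035 over the omissions. The number of genes with an exact p under 0.05 was 1 (Alox8; 12.2% of all genes tested) and ranged from 0 to 1 over the omissions, the gene being Alox8 in 8 and Cysltr1 in 2 (without control replicate 5 or knockout replicate 2); without samples 4301 to 4307 it was Cysltr1. Relative to homeostatic microglia it was also 1 (8.46% of all genes), from 0 to 1 over the omissions (Alox8 in 11, Cysltr1 in 1, without control replicate 5), and 3 with the disease-associated genes added, where 27.7% of all genes had such a value. At a floor of 1 read Ltb4r1 was present in 5 libraries, against 1 at 3 reads. Signs of Alox5ap, Lta4h, Cysltr1 and Alox8 held in all of these fits that tested the gene. At a mean count of 50 only Lta4h, Alox12b and Alox8 could be tested. Alox5, Alox5ap, Ltc4s and Cysltr1 had under 50 reads on average; the variance of Ltc4s counts was 5.45 (controls) and 7.49 (knockouts) times what counting error gives. No paired analysis was possible because the groups share no replicate numbers in the labels. The causes were not tested.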

Other observations

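Alox15 and Alox12, the lipoxygenases best known from macrophages and platelets, were below the count filter. Alox15 had 12 reads over the 6 controls, in 4 of them, and 2 reads over the 7 knockouts, in 2 of them (exact two-sided permutation p = 0.0577 in log2 CPM). Alox12 had 6 to 28 reads in controls and 6 to 22 in knockouts, at 1.11 ± 0.621 CPM (SD, n = 6) and 0.647 ± 0.316 CPM (SD, n = 7; exact two-sided permutation p = 0.112). Alox12e had 18 reads over the controls, in 5 of 6, and 12 over the knockouts, in 4 of 7 (exact two-sided permutation p = 0.288).

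The evenness of Alox5 among the knockouts was unusual in this table. The 7 knockouts had 21 to 30 reads, and the variance of these counts around their expectation from library size was 0.0601 of what counting error gives on average (0.721 in the 6 controls). Of 3091 tested genes with a mean of 15 to 50 reads, the median ratio in knockouts was 1.84, and 1 gene, Alox5 itself, was at or below 0.0601. This was noticed after the values were seen, and a spread below counting error is not read as a property of the knockouts.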
